A study of Mus musculus with 11 samples.

Results

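The miR-290 cluster is a group of 7 microRNA (miRNA) hairpin genes, Mir290, Mir291a, Mir292, Mir291b, Mir293, Mir294 and Mir295. Its members were taken by name, and they made up 7 of the 3859 small RNA genes in the deposited table. Their level was followed while mouse embryonic fibroblasts (MEF) were turned into induced pluripotent stem cells (iPSC). The 11 small RNA libraries were 1 each of secondary MEF before induction, of days 1 to 8 after addition of doxycycline (Dox), of an iPSC line and of an embryonic stem cell (ESC) line. All 11 were labelled Mbd3f/-, with 1 floxed and 1 deleted copy of Mbd3, which encodes part of the NuRD repressor complex, and reprogramming was by the factors Oct4, Sox2, Klf4 and Myc, switched on with Dox. The column of the ESC library carries the name V6.5, so the genotype of that line is unclear. Days 3 to 8 and both lines were grown on irradiated human foreskin fibroblasts as feeders, and MEF and days 1 and 2 on none. The medium was also changed early in the course to one with LIF and MEK and GSK3 inhibitors (the labels differ on the exact day), and both lines were collected in a medium of that kind. Feeders, medium and later days therefore cannot be told apart. No stage had a replicate, so a test over the course measures only the scatter of single libraries around a trend.

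The miRNAs of this cluster are cut from a shared primary transcript and are among the most abundant miRNAs of mouse ESC. Several of them carry AAGUGC in their seed, the bases near the 5′ end by which a miRNA pairs with its targets, and they are known for repressing inhibitors of entry into S phase such as Cdkn1a, Rbl2 and Lats2. Several miRNAs of the miR-302 cluster carry the same core seed, and let-7 miRNAs, linked to differentiation, are known to oppose such ESC miRNAs.

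The genes lie on the plus strand of chromosome 7 within 3218626 to 3220841 (GRCm38, the assembly of mm10). From left to right the order is Mir290 (3218626 to 3218708, 83 nt, annotated as Mir290a), Mir291a (3218919 to 3219000, 82 nt), Mir292 (3219189 to 3219270, 82 nt), Mir291b (3219482 to 3219560, 79 nt), Mir293 (3220343 to 3220422, 80 nt), Mir294 (3220641 to 3220724, 84 nt) and Mir295 (3220773 to 3220841, 69 nt). The widest gap between neighbours was 782 nt, between Mir291b and Mir293, and the narrowest 48 nt, between Mir294 and Mir295. The 6 genes from Mir291a to Mir295 lie opposite a UTR exon of Nlrp12 on the minus strand. In GENCODE vM21, Mir290 and Mir292 also have a miRNA gene on the opposite strand, Mir290b and Mir292b. Whether the counting used strand is not given in the sources used here, so reads from these 2 pairs cannot be told apart.

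RefSeq (GRCm38.p6) gave 13 mature sequences for the 7 genes. Those that show the seeds are printed 5′ to 3′, with bases 2 to 8, the seed, in capitals. The first 3 have the identical seed AAGUGCU, and the next 2 have AAGUGCC and AAGUGCA.
mmu-miR-291a-3p: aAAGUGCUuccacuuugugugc
mmu-miR-294-3p: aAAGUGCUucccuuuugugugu
mmu-miR-295-3p: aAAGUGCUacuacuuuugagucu
mmu-miR-290a-3p: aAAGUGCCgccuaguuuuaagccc
mmu-miR-291b-3p: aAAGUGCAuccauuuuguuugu
mmu-miR-293-3p: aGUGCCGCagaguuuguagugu
mmu-miR-292a-5p: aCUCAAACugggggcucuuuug
mmu-miR-291a-5p: cAUCAAAGuggaggcccucucu
mmu-miR-291b-5p: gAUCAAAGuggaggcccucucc

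Among the 1738 mature sequences in the RefSeq table, AAGUGCU was the seed of 5, and the other 2 were miR-302b-3p and miR-302d-3p. AAGUGCA of miR-291b-3p was shared with miR-350-5p. The letters GUGCCGC, the seed of miR-293-3p, also lie at bases 4 to 10 of miR-290a-3p. That table lists no miR-292a-3p and may lack other arms. Its seed counts are therefore counts of listed sequences, and they do not show that Mir302a lacks the AAGUGCU seed. Of the 6 member hairpins it lists, 6 hold AAGUGC, and 3 of them, those of Mir290, Mir292 and Mir293, hold AAGUGCC. Of the 5p arms, miR-290a-5p, miR-292a-5p and miR-293-5p shared the seed CUCAAAC with each other and with no other. miR-291a-5p and miR-291b-5p shared AUCAAAG, and their longest identical run was 20 nt, bases 2 to 21 of both. How the authors divided reads that match more than 1 gene is not given, so the split between Mir291a and Mir291b is uncertain. The table has 1 value per hairpin gene, so the 5p and 3p arms cannot be told apart in what follows.

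Levels are in FPKM, fragments scaled to gene length and to the mapped fragments of the library. In low values, steps of equal size gave the worth of 1 read, from which the reads behind each value and a depth of 11600000 (MEF) to 21900000 (day 7) mapped reads were implied. These reads rest on a model of fragment length. Genes of the table took 44.9% to 59.2% of the implied mapped reads in 9 libraries but 22.7% on day 7 and 27.7% on day 8, so values per mapped read and per miRNA read part most in those libraries. Ratios, steps and slopes per miRNA read leave out of the total any miRNA with a 0 in an abundant transcript (see Mir295 below). Shares of miRNA reads are taken over all miRNAs. Fibroblast miRNAs, 7 of the 8 listed (Mir143, listed at 0 in MEF, was left out), summed to 64057000 FPKM in MEF, 50802000 on day 2, 29324700 on day 3, 5650100 on day 8, 6273530 in iPSC and 13125700 in ESC, and none of the 7 was at 0. The 5 muscle miRNAs found summed to 176879 FPKM in MEF and 331 on day 8, with 2 of the 5 at 0 on day 8. The part of these other cells, feeders included, in the levels of the cluster was not tested, and fewer cells of a type cannot be told apart from less RNA per cell.

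The members with a listed 3p arm that has AAGUGC in its seed are described first. Mir295 had the highest level of the cluster in all 9 libraries of the course: 15864.7 FPKM in MEF, 265541, 3706300, 8752670, 15028700, 19715500, 32211000, 25929200 and 31201600 on days 1 to 8, but listed at 0 in iPSC and ESC. Its FPKM stood higher at each stage up to day 6, and days 6 to 8 were close together. The zeros in the lines stand beside 6 neighbours that were all high there, and 25 such zeros were found in 15 abundant transcripts of the table. No fold is given against them, and Mir295 is left out wherever the lines are compared.

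Mir291a had 602.421 FPKM in MEF, then 21006.1, 258247, 465825, 734845, 1044130, 1609440, 1528760 and 2223240 on days 1 to 8, and 4158000 in the iPSC line and 3069750 in the ESC line. Every library of the course was above MEF, and both lines were above day 8 on this scale. Mir294, one of the members known to promote reprogramming when added as a mimic, had 388.882 FPKM in MEF, then 5177.67, 92487.9, 120791, 283167, 357565, 846974, 1211440 and 1228080 on days 1 to 8, and 1204470 in the iPSC line and 743003 in the ESC line. Days 7 and 8 were at about the FPKM of the iPSC line, and the ESC library lay below both.

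Mir290 was at 44.7402 FPKM in MEF, the worth of 1 read, then at 1122.1, 22915.2, 45152.1, 52927.7, 74468.8, 120847, 93454.4 and 113645 on days 1 to 8, and 295721 in the iPSC line and 175168 in the ESC line. The course was highest on day 6, and both lines had a higher FPKM. Mir291b, the lowest member of the course, was listed at 0 in MEF, where 0 reads allow up to 154 FPKM (3 reads), and was at 383.389, 4469.81, 8024.4, 7359.29, 11157.3, 12561.3, 7297.37 and 10583.9 on days 1 to 8, and 54055.3 in the iPSC line and 227511 in the ESC line. From day 3 to day 8 Mir291b had no steady direction, and the lines, the ESC library above all, stood well above every day.

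Mir293, whose 3p seed is offset from the others, had 1691.9 FPKM in MEF, then 24914.6, 572679, 747419, 1598550, 1864410, 2863790, 2008610 and 3000050 on days 1 to 8, and 7237250 in the iPSC line and 6430410 in the ESC line. Days 6 and 8 were close to each other and day 7 was lower, and both lines had more FPKM than any day. Mir292 has the CUCAAAC seed in its printed 5p arm. Its hairpin also holds AAGUGCC, but its 3p arm was not listed. Mir292 had 2780.41 FPKM in MEF, then 62932.3, 1201450, 1282100, 3051370, 3947900, 5372130, 6383740 and 8860800 on days 1 to 8, and 8813650 in the iPSC line and 7109920 in the ESC line. Its FPKM on day 8 and in iPSC nearly matched, as for Mir294, and the ESC library was lower.

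**Figure D1:**
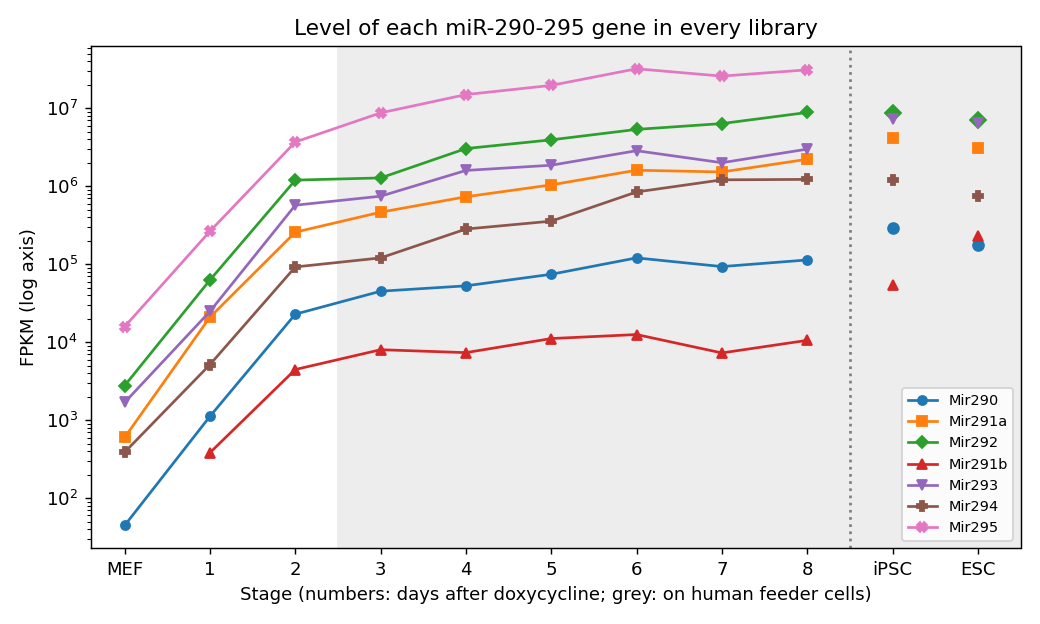
FPKM of each of the 7 genes (log axis) in the 11 libraries, 1 point per library, with the course joined by lines and the stages on human feeder cells in grey. Points at 0 are not drawn (Mir291b in MEF, and Mir295 in iPSC and ESC, which reached 31201600 FPKM on day 8), and the steepest stretch of all lines runs from MEF to day 2.

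Of the 7 members, 7 rose over the course from MEF to day 8, with slopes between 0.94 and 1.30 on the log2(FPKM + 10) scale per day. In the limma fit over 9 libraries (MEF placed at day 0, Benjamini-Hochberg adjustment over 1419 transcripts), 12.5% of the transcripts tested rose, 177 in all, while 150 fell. The median slope was 1.18 over the members and 0.02 over all transcripts. Mir294 had the steepest slope, 1.30 ± 0.20 (SE; limma adjusted p = 0.00255). Mir292 rose by 1.21 ± 0.24 per day (limma adjusted p = 0.00738) and Mir291a by 1.21 ± 0.24 (0.0086). The slopes of Mir295, Mir290 and Mir293 were 1.18 ± 0.24, 1.14 ± 0.26 and 1.13 ± 0.24 (limma adjusted p = 0.00792, 0.0142 and 0.0115). Mir291b rose by 0.94 ± 0.27 (limma adjusted p = 0.0345), a value that rests in part on its 0 in MEF: without the MEF library it was 0.47 (adjusted p = 0.0995), and its call was also lost without day 1 (0.0816), day 5 (0.0553) or day 6 (0.0667), at slopes of 0.94, 0.92 and 0.93. Without MEF the median slope of the members was 0.78 with 6 of 7 rising and 93 transcripts rising in all.

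The climb was steepest at its start and slowed. With 10 FPKM added to both, day 1 was at least 4-fold above MEF for 7 of 7 members, against 21.2% of 1412 transcripts compared, but for Mir291b, with 0 reads in MEF, that call rests on the added value, which leaves 6 of 7. Against the single read of MEF, Mir290 was 25.1-fold higher on day 1, with a 95% counting interval of 4.13 to 1026. For Mir291a the ratio of day 1 to MEF was 34.9 (20.2 to 66.0), for Mir292 22.6 (17.5 to 29.8), for Mir293 14.7 (10.4 to 21.5), for Mir294 13.3 (6.79 to 29.7) and for Mir295 16.7 (14.6 to 19.3). Mir291b was at least 2.48-fold higher, taking 3 reads as the limit in MEF. Such intervals cover counting error only, and PCR copies are not independent molecules.

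From day 1 to day 2 the same was seen again. All 7 of 7 members were at least 4-fold higher on day 2 than on day 1, against 12.4% of 1413 transcripts. The ratio of day 2 to day 1 was 11.7 for Mir291b (5.69 to 27.7), the lowest, and 23.0 for Mir293, the highest. By day 2, before the first feeder stage, the 6 members with a read in MEF had covered between 67.8% (Mir294) and 79.0% (Mir290, from 1 read) of their log2 climb from MEF to day 8, with a median of 74.5%. These parts are per mapped read, and they are smaller per miRNA read, where day 8 stands higher. On that scale Mir294 was 279-fold above MEF on day 2 and 7761-fold on day 8, and Mir290 601-fold and 6243-fold. Later steps were smaller: the median step was 0.84 from day 2 to day 3, when the feeders came in, 0.78 from day 3 to day 4, 0.39 from day 4 to day 5 and 0.62 from day 5 to day 6 (log2). From day 6 to day 7 the members parted per mapped read, with Mir292 and Mir294 higher (by 0.25 and 0.52) and 5 lower, down to -0.78 for Mir291b, but per miRNA read all 7 were higher, by 0.27 to 1.57. From day 7 to day 8 all 7 were higher per mapped read, by 0.02 (Mir294) to 0.58 (Mir293), and per miRNA read 5 were higher and 2 lower (-0.26 to 0.30).

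The slowing was tested as a curvature, the coefficient of day squared in a fit over the same 9 libraries. All 7 members curved downwards (7 of 7 called lower by limma, against 10.4% of 1419 transcripts), with coefficients between -0.32 (Mir291b) and -0.23 (Mir294) and a median of -0.29, where the median over all transcripts was -0.04. Mir295 had the lowest adjusted p, with a coefficient of -0.29 ± 0.04 (limma adjusted p = 0.0112), and Mir292 the highest, at -0.27 ± 0.06 (0.0205). This result rests on the MEF library: without it only Mir295 kept its call, and 70 of 1419 transcripts were called lower in all. The other 6 members had adjusted p from 0.088 to 0.126 with coefficients still below 0. Without day 4, 4 of 7 were called, with 64 transcripts called lower in all.

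**Figure D2:**
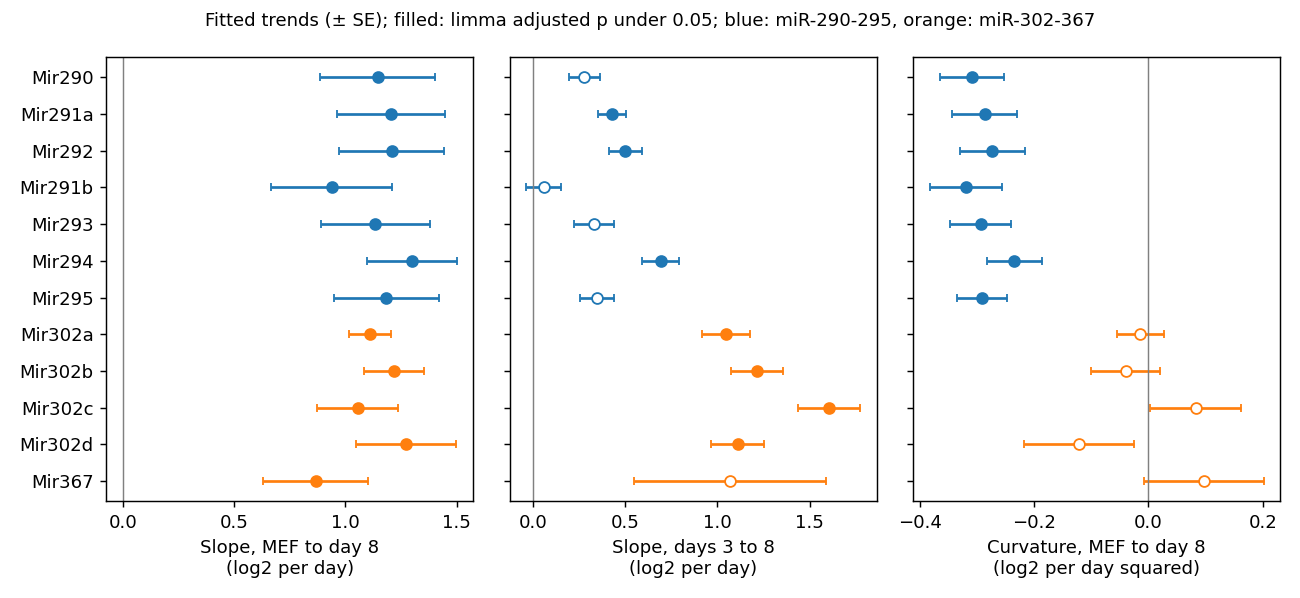
Slope over the course, slope within days 3 to 8 and curvature over the course (log2 units per day or per day squared, ± SE), for the 7 members in blue and 5 miR-302 cluster genes in orange, with filled points where the limma adjusted p is under 0.05. The members have course slopes of 0.94 to 1.30 like those of the miR-302 genes, but curvatures between -0.32 and -0.23, where those of the miR-302 genes lie between -0.12 and 0.10.

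Within days 3 to 8, all on feeders, the members' slopes were lower and parted from each other. Mir294 rose by 0.69 ± 0.10 per day (limma adjusted p = 0.0256), Mir292 by 0.50 ± 0.09 (0.0378) and Mir291a by 0.43 ± 0.07 (0.0378). These are 3 of 7 members called, against 4.65% of the 1419 transcripts, with a median slope of 0.35 for the members and -0.10 for all transcripts. The slopes of Mir295, Mir293 and Mir290 were 0.35 ± 0.09, 0.33 ± 0.11 and 0.28 ± 0.08 (limma adjusted p = 0.0746, 0.0998 and 0.0918), and that of Mir291b was 0.06 ± 0.09 (0.697). With values scaled to the miRNA reads of each library the count was 6 of 7, but 164 of 1419 transcripts then rose. The median slope of all transcripts was 0.07 in that fit. With the values not scaled, the count of members called was 0 without day 3, 4, 5, 7 or 8. These fits called only 2, 0, 9, 0 and 0 of 1419 transcripts as rising, so their count says little. They kept a members' median slope of 0.25, 0.37, 0.35, 0.38 and 0.42. Without day 6 the count of members was 2, with 40 transcripts rising in all.

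At the end of the course, 7 of 7 members were at least 4-fold above MEF on day 8, but so were 37.4% of 1411 transcripts. The ratio of day 8 to MEF was 3691 for Mir291a (2161 to 6941), 3187 for Mir292 (2479 to 4182) and 3158 for Mir294 (1665 to 6913). It was lower for Mir295, at 1967 (1719 to 2262), and for Mir293, at 1773 (1271 to 2565). For Mir290 it was 2540 with a wide interval (456 to 100467), and Mir291b was at least 68.5-fold higher. In the iPSC line 6 of 6 members with a value were at least 4-fold above MEF, against 39.0% of 1410 transcripts, and in ESC 6 of 6, against 36.2%. Scaled to miRNA reads the day 8 ratios were larger, 7832 for Mir292 and 4358 for Mir293.

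The cluster's share of the implied miRNA reads of each library was also followed. The part of feeder cells in these reads was not tested. In MEF the 7 members had 328 implied reads, 0.00589% of the implied miRNA reads, of which 211 were from Mir295. The share was 0.0932% on day 1, 1.73% on day 2, 3.35% on day 3, 5.31% on day 4, 8.18% on day 5, 13.5% on day 6, 24.1% on day 7 and 25.7% on day 8. It stood higher at every day than at the stage before, days 7 and 8 included, although 5 members had a lower FPKM on day 7 than on day 6. Without Mir295, the other 6 members took 0.0021% in MEF (95% exact binomial interval 0.00174% to 0.00252%). They took 11.4% on day 8, and the iPSC and ESC lines were at 8.27% and 6.95%. The day 8 total holds Mir295 reads and those of the lines do not. With miRNAs that have a 0 in an abundant transcript left out of the total, the shares were 15.3%, 9.35% and 8.15%. On the FPKM scale the order of these last stages was the other way, the 6 members summing to 15436400 FPKM on day 8 and to 21763100 and 17755800 in the iPSC and ESC lines. Whether day 8 stood above or below the lines thus depended on the scale.

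**Figure D3:**
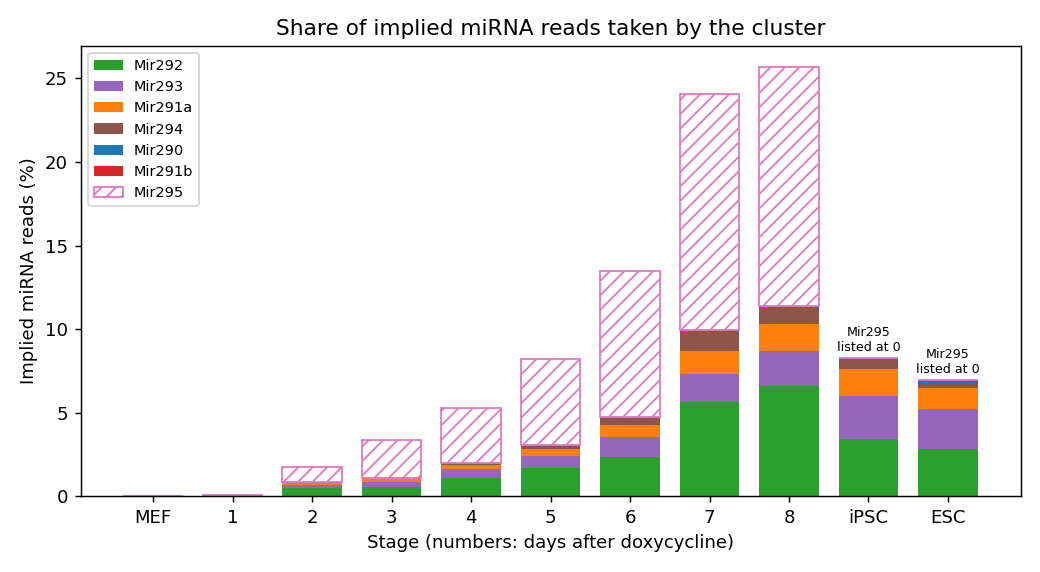
Percentage of the implied miRNA reads of each library (1 library per stage) taken by the members, stacked, with Mir295 hatched because it is listed at 0 in iPSC and ESC. The full stack reaches 25.7% on day 8, and the 6 other members take 11.4% there, 8.27% in iPSC and 6.95% in ESC. The day 8 total holds Mir295 reads and those of the lines do not.

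The members held nearly the same order throughout. By FPKM, and equally by reads per nucleotide of the hairpin, all 9 libraries of the course had the order Mir295, Mir292, Mir293, Mir291a, Mir294, Mir290 and Mir291b. The neighbours set widest apart were Mir290 and Mir291b, with a median FPKM ratio of 6.93 over 8 libraries (2.93 to 12.8). The closest were Mir293 and Mir291a, with a median of 1.78 (1.19 to 2.81) over the 9 libraries. For Mir292 over Mir293 the ratio ran from 1.64 to 3.18, for Mir291a over Mir294 from 1.26 to 4.06, and for Mir294 over Mir290 from 2.68 to 13.0. No ratio of neighbours fell below 1 in these libraries, but with 1 library per stage no spread between cultures can be set beside them. The 1 change of order was in ESC, where Mir291b stood above Mir290. Effective length in FPKM is small for hairpins, so ratios between members are less secure than those between libraries.

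Composition changed more than order. Of the reads of the 6 members other than Mir295, Mir292 took 51.3% in MEF and between 48.8% and 57.8% on days 1 to 8, but 41.3% in iPSC and 41.0% in ESC. Mir293 took 29.1% in MEF, 20.3% on day 1, between 24.1% and 26.5% on days 2 to 6, 16.7% on day 7 and 18.2% on day 8, and 31.6% and 34.5% in iPSC and ESC. Mir294 took 4.68% to 5.38% on days 1 to 5, then 8.49%, 11.6% and 8.59% on days 6 to 8, and 6.04% and 4.59% in the lines. The late course thus had more Mir292 and Mir294 and less Mir293 within the cluster than both lines. Mir291b took 0.302% on day 1, 0.0586% on day 7 and 0.0621% on day 8, 0.227% in iPSC and 1.18% in ESC. Mir291a ranged from 11.1% in MEF to 19.5% in iPSC, and Mir290 from 0.768% on day 8 to 1.78% on day 3. These shares do not depend on the scaling of a library, but the MEF shares rest on 117 reads.

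**Figure D4:**
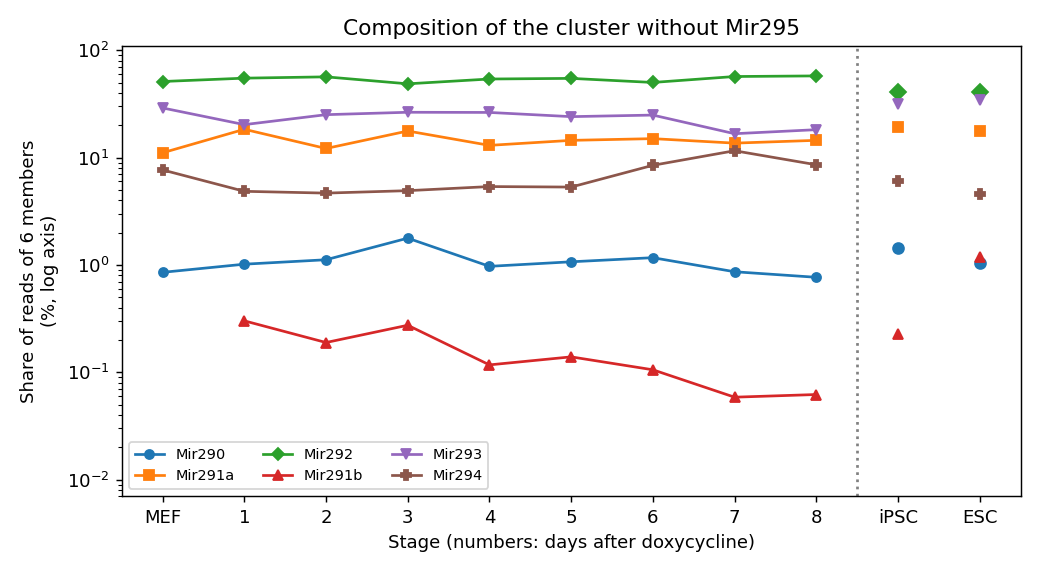
Share of the implied reads of the 6 members other than Mir295 (%, log axis) that each took in the 11 libraries, 1 point per library. Mir292 lies at 48.8% to 57.8% on days 1 to 8 and at 41.3% and 41.0% in the lines, and Mir291b moves from 0.0621% on day 8 to 1.18% in ESC.

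Between day 8 and the lines, Mir291b was the member that stood apart. Its iPSC level was 5.11-fold that of day 8 (4.55 to 5.75), making 1 of 6 members at least 4-fold higher, against 22.7% of 1417 transcripts. In ESC it was 21.5-fold that of day 8 (19.4 to 24.0), again 1 of 6, against 13.8%. ESC over iPSC gave 4.21-fold (3.97 to 4.47), also 1 of 6, against 7.13%. Scaled to miRNA reads these 3 ratios for Mir291b were 2.25, 10.1 and 4.52, so the first is then under 4-fold. In implied reads Mir291b had 365 on day 8, 1347 in iPSC and 6789 in ESC, against 85351, 115296 and 101913 for Mir291a. The split of reads between these genes is uncertain, and the intervals do not cover that.

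The other 5 members lay within 4-fold of day 8 in both lines. Per mapped read the iPSC ratio to day 8 was 2.60 for Mir290, 2.41 for Mir293, 1.87 for Mir291a, 0.995 for Mir292 and 0.981 for Mir294, and per miRNA read 1.14, 1.06, 0.822, 0.437 and 0.431. Mir291a thus turned from above to below day 8. The ESC ratio to day 8 was 2.14 for Mir293, 1.54 for Mir290, 1.38 for Mir291a, 0.802 for Mir292 and 0.605 for Mir294, and per miRNA read 1.01, 0.727, 0.652, 0.379 and 0.285. Mir290 and Mir291a turned with the scale. ESC stood below iPSC for all 5 on both scales, with ratios from 0.592 (Mir290) to 0.889 (Mir293) per mapped read and from 0.636 to 0.954 per miRNA read.

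**Figure D5:**
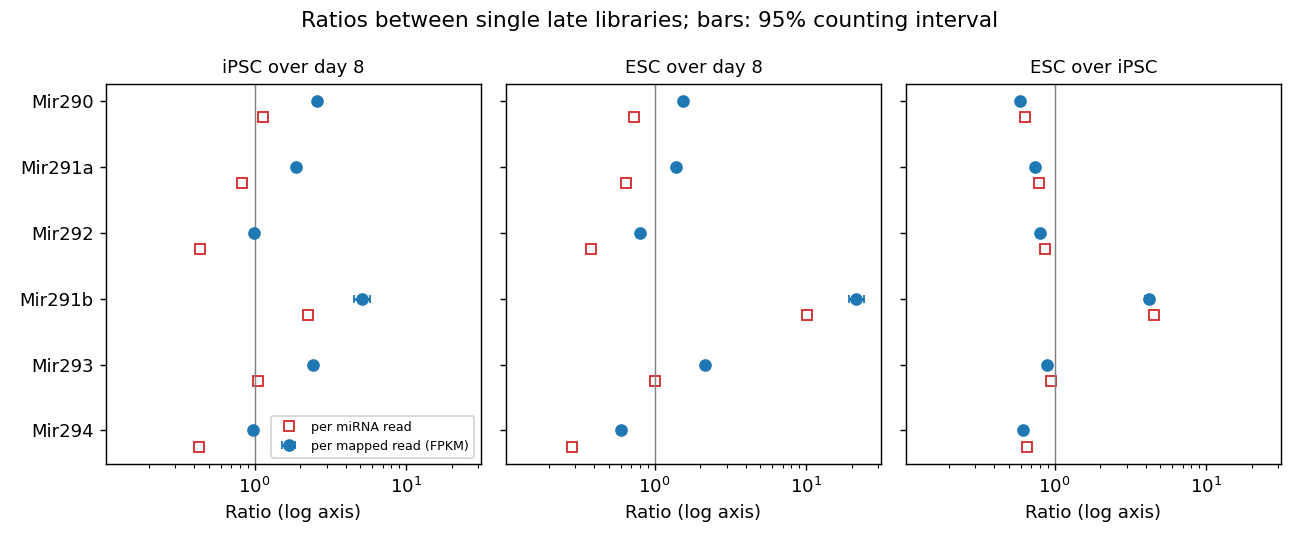
Ratios of iPSC to day 8, ESC to day 8 and ESC to iPSC (log axis) for the 6 members with a value in the lines, per mapped read with 95% counting intervals (blue) and per miRNA read (red squares). Mir291b is the member at the right in each panel, at 5.11, 21.5 and 4.21 per mapped read, and the 2 scales fall on opposite sides of 1 for Mir291a in the first panel and for Mir290 and Mir291a in the second.

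The miR-302 cluster is known from pluripotent cells, and several of its miRNAs share the AAGUGC core. Mir367 was counted with it as a gene of the cluster, not for its seed. The miR-302 cluster reached a lower summed level than the miR-290 cluster and stood higher on day 8 than on day 6 in all 5 of its genes. Over the course all 5 rose (limma), against 12.5% of 1419 transcripts, with slopes from 0.87 (Mir367) to 1.27 (Mir302d). None of the 5 was called for curvature, but only 10.4% of transcripts were called lower there, so that count says little. On day 8 Mir302d (160446 FPKM) was above Mir290, and Mir302a, Mir302b and Mir302c (65824, 33615.3 and 11304.4) were above Mir291b. The 5 summed to 75.5 FPKM in MEF, with 4 of 5 at 0, 6545 on day 2, 6987 on day 3, 30090 on day 6, 274325 on day 8, 160056 in iPSC and 211020 in ESC. Mir302a, the 1 gene of the 5 with a read in MEF, had covered 38.4% of its log2 climb to day 8 by day 2. In MEF 1 read of a miR-290 cluster member was worth 43.2 (Mir294) to 75.2 FPKM (Mir295). The 75.5 FPKM of Mir302a there, and so the 38.4%, thus probably rest on very few reads. For the 4 at 0 in MEF it was 41.9% (Mir367) to 62.9% (Mir302d), values that rest on the added 10 FPKM. Mir302d was already at 1427.72 FPKM on day 1. From day 6 to day 8 the 5 genes stood higher by 2.86 to 3.29 (log2), where the miR-290 cluster members moved by between -0.25 and 0.72. Per miRNA read all members of both clusters were higher, by a median of 3.86 for the miR-302 cluster and 0.85 for the miR-290 cluster (at least 3.65 and 0.53). Within days 3 to 8, 4 of 5 rose, against 4.65% of 1419 transcripts. The lowest slope was 1.05 (Mir302a, limma adjusted p = 0.0203) and the highest 1.60 (Mir302c, 0.0203). The fifth, Mir367, had a slope of 1.07 (0.233). Fits without day 4, 7 or 8 called 0 of 1419 transcripts as rising, and so none of these genes. The difference in timing between the clusters was not tested.

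Of the miR-17 seed family, whose seed is related to the AAGUGC core and which promotes proliferation, 2 of 6 rose over the course. They were Mir20b, by 0.63 per day (limma adjusted p = 0.00598), and Mir106a, by 0.59 (0.0455), where 12.5% of 1419 transcripts rose. The lowest slope was 0.01 (Mir106b), and none of the 6 was called for curvature or within days 3 to 8. Of all transcripts, 10.4% were called lower for curvature and 4.65% higher within days 3 to 8, so these counts say little about the family. Mir17 and Mir20a were listed at 0 on day 2, among the zeros in abundant transcripts, so their slopes of 0.50 ± 0.53 and 0.51 ± 0.50 have wide errors. Of 11 let-7 names 9 were found in the table. Of these, 5 fell and none rose over the course, where 150 of 1419 transcripts fell and 177 rose. The lowest slope was -0.43 (Mirlet7i, limma adjusted p = 0.00274), and the highest of the 9 was -0.00 (Mirlet7b, 0.987), which was not called. These 9 summed to 16179400 FPKM in MEF and 5019820 on day 8. Mir350, whose 5p arm shares the seed of miR-291b-3p, had 10126.1 FPKM in MEF, against 4601.41 on day 8. Both pairs of values are per mapped read, and neither was compared per miRNA read. On that other scale day 8 stands higher against MEF (for Mir292 a ratio of 7832 in place of 3187). The let-7 fall is then smaller, and that of Mir350 need not hold.

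Across the 11 libraries the 6 members other than Mir295 ran closely together, with Pearson r between pairs from 0.912 to 0.997 and a median of 0.988 over 15 pairs (log2 scale). The points share libraries and depth, so these values are a description. Of the 1405 other transcripts with a value for r, the 5 most like the mean of these 6 members were Mir1968 (r = 0.954), Mir669b (0.945), Gm24315 (0.944), Mir183 (0.942) and Mir669a-6 (0.939), where the median r was 0.27. Their course slopes were less than those of the members, from 0.47 (Gm24315) to 0.56 (Mir183).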

How the data were processed

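Small RNA was sequenced from total RNA (TruSeq small RNA kit, gel size selection), per the labels' protocols. The authors deposited 1 table of FPKM, with 3859 rows and 11 columns, of which 0 belong to other samples. Per the submitters' processing notes, build mm10 and the tools Cufflinks 2.2.1, Bowtie2 2 and CASAVA 1.8.2 were used, in roles not stated. The annotation, the sharing of reads that match several genes, strand use and the table's filter were not given in the sources used here. GENCODE vM21 held 3717 of the gene IDs and lacked 142.

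Depth came from steps of values below 200 FPKM with an assumed fragment length of 200 ± 80 nt. Among the 4813 values from 0.5 to 5.5 reads, 91.1% lay within 0.05 read of a whole number. These values helped to set the steps, and the model is assumed, so no count test was run. A counting interval is the exact conditional binomial interval (95%) of the implied reads, and a floor is 3 reads.

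The deposited FPKM were put on a log2(FPKM + 10) scale and fitted for 1419 transcripts (mean FPKM of 10 or more) with limma 3.58.1 in R 4.3.3 (two-sided, empirical Bayes, Benjamini-Hochberg, threshold 0.05). The added 10 makes changes of low transcripts look smaller. The fits, checked on simulated data, were a slope over MEF and days 1 to 8, a curvature over the same libraries and a slope over days 3 to 8. Single stages were compared without a test, called at 4-fold with 10 FPKM added, leaving out the 25 values listed at 0 in abundant transcripts (rule set after seeing them). The alternatives were pseudocounts of 1 and 100, other filters, miRNA transcripts alone, quantile or miRNA-read scaling (over miRNAs without the zeros listed apart), zeros as missing, limma-trend, a log day axis, day 7 in place of day 8, and leaving out libraries. The 7 members and all lists were chosen with earlier results of these data known. Named genes were the members, the highest and lowest slope of each list, genes sharing a seed and the 5 transcripts most alike in Pearson r. Wild-type and Gatad2a-deficient lines were not analysed here.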

Additional observations from a re-analysis of the deposited data

How the results depend on the processing

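No paired analysis was possible because each stage has 1 library. Over the course, 6 or 7 members rose under every alternative run, and only Mir291b lost its call (without MEF, day 1, day 5 or day 6, with a pseudocount of 1, adjusted p = 0.0633, and without a filter, 0.0788; limma). Scaled to miRNA reads, the median slope of all transcripts was 0.16 in place of 0.02, that of the members 1.35, and the transcripts that rose and fell were 362 and 92 in place of 177 and 150. Without days 7 and 8 they were 181 and 69, with a members' median of 1.66. Leaving out 1 library, the members called for curvature ranged from 1 (without MEF, 70 of 1419 transcripts called lower) to 7, with 4 without day 4 (64 of 1419). Within days 3 to 8 the count of 3 became 1 with a pseudocount of 1 (35 of 1419 transcripts rising). With constant transcripts left out (added after seeing the data) it was 1 (57 of 1394). It became 6 after quantile normalization (118 of 1419) and 6 scaled to miRNA reads (164 of 1419). For days 3 to 6 alone it was 0 (0 of 1419 transcripts called, members' median 0.60). The count ranged from 0 to 2 leaving out 1 library, in fits that called between 0 and 40 of 1419 transcripts as rising. Ratios that turned to below 1 were, scaled to miRNA reads and after quantile normalization, ESC to day 8 for Mir290 (0.727 and 0.848) and Mir291a (0.652 and 0.558), iPSC to day 8 for Mir291a (0.822 and 0.614), and, after quantile normalization alone, ESC to day 8 for Mir293 (0.928). The cause was not tested. Depth limits MEF most, where the 7 members had 328 reads.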

Other observations

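The table held 7 further rows named after hairpins of the mmu-mir-290 to mmu-mir-295 series under other IDs. All 7 were listed at 0 in the 11 libraries, and none of the 7 IDs was found in GENCODE vM21. Mir20b and Mir106a, the X-linked members of the miR-17 seed family, were at 18930.5 and 20873.4 FPKM on day 8 but at 148993 and 161192 in iPSC and 153449 and 155952 in ESC. Unlike Mir291b, their levels in iPSC and ESC were close to each other.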
